A study of Mus musculus with 4 samples.

Results

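The DNA replication machinery was followed through 49 listed genes of a mouse oocyte RNA-seq table that holds 21957 genes. They cover origin recognition and licensing, the MCM helicase and its partners, the 3 replicative polymerases, the clamp and its loader, the single-strand binding protein RPA and the enzymes that finish Okazaki fragments and remove ribonucleotides. The genes were found by matching the Ensembl identifier of each entry, without its version, to a mouse symbol, and every one of the 49 was present. Measured values played no part in that rule, but 10 members (*Rpa2*, *Pold4*, *Rfc2*, *Rfc3*, *Rfc4*, *Pold2*, *Rnaseh2a*, *Rnaseh2c*, *Fen1* and *Mcm5*) were listed by the study from these same libraries. Their direction is therefore not independent evidence, and counts are given with them and without them.

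The study asked how tubastatin A (TubA), a small molecule made to inhibit the cytoplasmic deacetylase HDAC6, changes the transcriptome of maturing oocytes. All oocytes came from B6D2F1 females, a C57BL/6 x DBA hybrid, aged 6 to 8 weeks and primed with PMSG. GV oocytes, arrested at the germinal vesicle stage, were taken at 0 h. MII oocytes were cultured for 12 h without TubA and were collected only if they had extruded a polar body. TubA-10 and TubA-20 oocytes were cultured for 12 h with TubA at 10 and 20 µM by their titles, whereas the treatment field gives 20 µM for the first and 11 µM for the second, so the order of the doses rests on the titles. No selection for polar bodies was described for the TubA oocytes, and drug and meiotic stage cannot be told apart in them. The label of the MII sample calls it an embryo, and the methods describe pools of 100 oocytes. Each condition had 1 library, so no difference has a replicate check and no p-value is given.

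Replication starts when the origin recognition complex (ORC), CDC6 and CDT1 load the MCM2-7 ring onto DNA, a step that geminin blocks by holding CDT1. CDC45 and GINS turn the loaded ring into the active CMG helicase, polymerase alpha-primase lays down primers, and polymerases delta and epsilon extend them on the sliding clamp PCNA, which the RFC complex opens and closes. RPA covers the exposed single strands, FEN1 and LIG1 join Okazaki fragments, and RNase H2 removes ribonucleotides. A fully grown oocyte does not replicate DNA between the meiotic divisions. It is transcriptionally silent and stores mRNAs, many of which are translated or destroyed during maturation, and DNA is next copied after fertilization.

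The values were FPKM, fragments scaled to the length of the transcript and the size of the library, so levels of different genes can be set side by side per length. Their sum was between 568331 and 627340 FPKM per library. Read totals are not used here. Relative depth was estimated from the spacing of the lowest values as 0.897 of the GV depth for TubA-20, 1.62 for MII and 1.70 for TubA-10, and the last pair of estimates is loose because few genes lay on the step. All 11 oocyte markers were above 1 FPKM in every library. Of 14 cumulus and granulosa markers, 3 to 5 reached 1 FPKM per library, their sum was between 22.4 and 26.5 FPKM, and *Foxl2* was listed at 0 in all 4 libraries. *Inha* was at 7.50 FPKM in GV and at most 0.314 FPKM elsewhere. *Cyp19a1* (6.14, 8.60, 7.42 and 10.3 FPKM over GV, MII, TubA-10 and TubA-20) and *Nr5a2* (9.23, 10.1, 11.5 and 9.12) did not share that fall. From GV to MII, 6 of the 14 markers were below 0 and 7 above 0. The part of follicle cells in the results below was not tested. The libraries were made by oligo(dT) selection, so a shorter poly(A) tail and a loss of mRNA cannot be told apart in any decrease. In any rise, a longer tail, more mRNA and a loss of other mRNAs cannot be told apart. Because FPKM is scaled to the size of the library, a change in total RNA per oocyte is not seen.

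Most members were expressed at 10 FPKM or more. In GV, 44 of the 49 were at that level, and all 49 had a median of 36.8 FPKM, beside 23.4 FPKM over the 7148 genes with a mean of at least 5 FPKM. The members ranged there from 3.18 (*Pold1*) to 281 FPKM (*Gmnn*). MII had 40 members at 10 FPKM or more, TubA-10 had 42 and TubA-20 had 40. In these libraries the members' median was closer to that of the 7148 genes, at 22.87 beside 22.91 FPKM in MII, 25.7 beside 23.4 in TubA-10 and 23.1 beside 22.4 in TubA-20. The members' summed level was 2889 FPKM in GV and 2892 in MII, next to 2872 for TubA-10 and 3313 for TubA-20. The sum hid opposite movements of subunits of the same complexes.

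**Figure D1:**
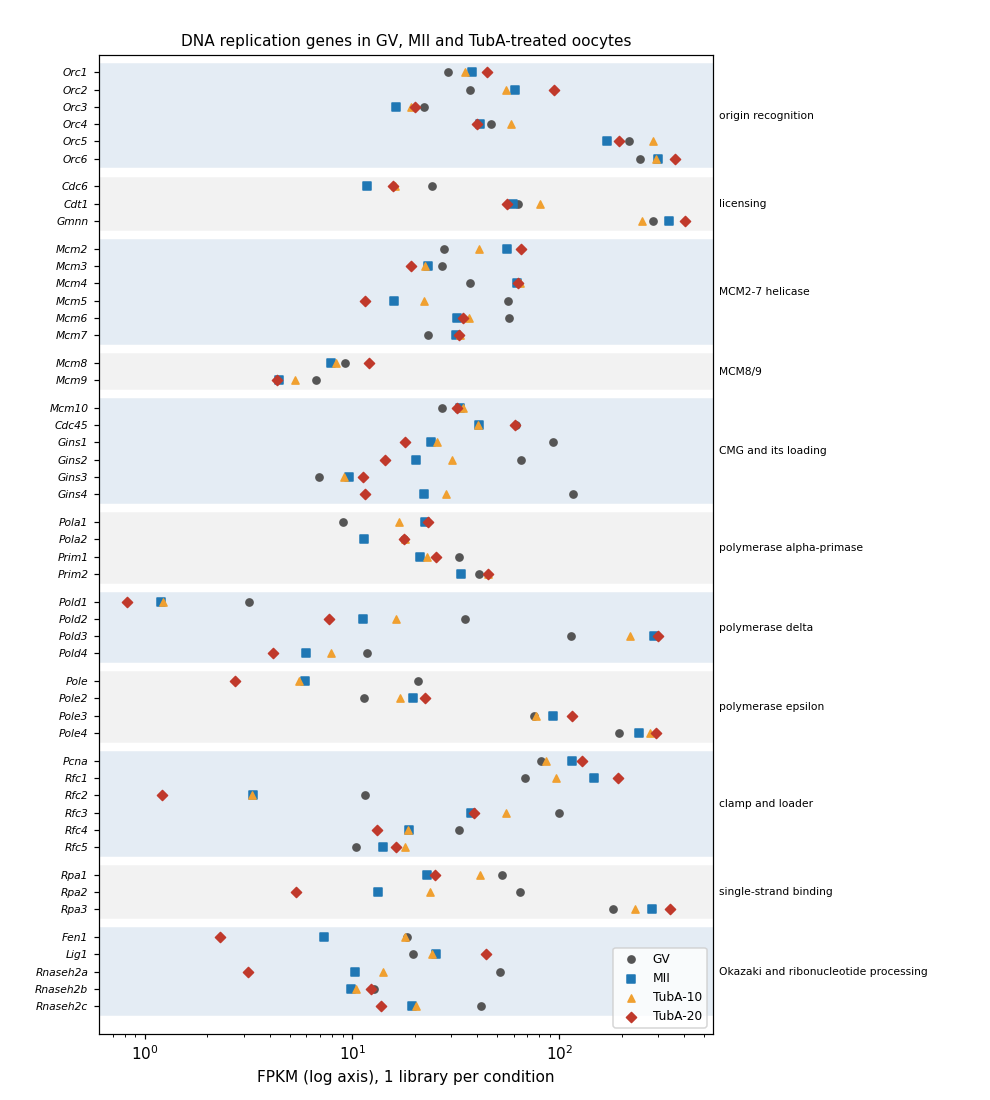
FPKM of each of the 49 members (log axis) in the GV, MII, TubA-10 and TubA-20 libraries, 1 point per library, with members grouped by role. *Gmnn*, *Orc6*, *Rpa3*, *Pole4*, *Pold3* and *Orc5* lay above 100 FPKM in every library, while *Pold1* stayed at or below 3.18 FPKM.

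From GV to MII the GINS subunits *Gins1*, *Gins2* and *Gins4*, the RPA subunits *Rpa1* and *Rpa2*, the RNase H2 subunits *Rnaseh2a* and *Rnaseh2c*, and *Mcm5*, *Pole*, *Pold2*, *Rfc2*, *Rfc3* and *Fen1* fell by more than 2-fold, and *Pold3*, *Pola1* and *Rfc1* rose by more than 2-fold. Fold changes are log2 ratios of FPKM + 1, which understate the change of low genes. These were 13 members lower (26.5%) and 3 higher (6.12%), with a median log2 ratio of -0.34. By the same rule 8.34% of all genes were lower and 3.05% higher, and over the 7148 genes with a mean of at least 5 FPKM 18.9% were lower and 8.60% higher, with a median of 0.17. Of the 47 members with a mean of at least 5 FPKM, 12 (25.5%) were lower. Without the 10 genes listed by the study, 5 of 39 members (12.8%) were lower and 3 higher, and the median was -0.07. That share lay between the 2 backgrounds. The study took the 10 genes from these same libraries, so leaving them out can lower a count by construction, and nothing is read from the difference between the counts.

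From GV to TubA-20, 16 members were more than 2-fold lower (32.7%) and 6 higher (12.2%), with a median of -0.13. *Pold1*, *Pold4* and *Rfc4* fell here besides the 13 named above, and *Mcm2*, *Orc2* and *Lig1* rose besides *Pold3*, *Pola1* and *Rfc1*. The background was 11.7% lower and 7.61% higher over all genes, and 24.7% lower and 21.0% higher over genes with a mean of at least 5 FPKM, with a median of 0.28. Among the 47 members with a mean of at least 5 FPKM, 14 (29.8%) were lower and 6 (12.8%) higher, with a median of -0.04. Without the 10 listed genes, 6 of 39 members were lower (15.4%) and 6 higher, with a median of 0.23. Here too leaving them out can lower the count by construction. From GV to TubA-10, 10 members were lower (20.4%) and 0 higher, with a median of -0.13. The background was 5.60% lower and 0.742% higher over all genes, and 12.6% and 1.80% over genes with a mean of at least 5 FPKM, and 4 of 39 members (10.3%) were lower without the listed genes. Among the 47 members with a mean of at least 5 FPKM, 9 (19.1%) were lower and 0 higher. The 3 comparisons share the GV library, so their members' values stand side by side below and are not counted as repeats of each other.

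Against MII few members moved. *Rnaseh2a*, *Fen1* and *Rpa2* fell past 2-fold in TubA-20 (6.12% of members) and 0 were higher, beside 2.44% lower and 0.328% higher over all genes, and 6.41% and 0.364% over genes with a mean of at least 5 FPKM. All 3 were listed by the study, so without its genes 0 of 39 members passed 2-fold in either direction by construction, with a median of 0.20. In TubA-10, *Fen1* alone was more than 2-fold higher than in MII and 0 members were lower, beside 0.515% higher and 0.128% lower over all genes, and 1.23% and 0.154% over genes with a mean of at least 5 FPKM. From TubA-10 to TubA-20, *Fen1*, *Rpa2*, *Rnaseh2a*, *Gins4* and *Gins2* fell (10.2% of members) and 0 rose, beside 5.52% lower and 0.660% higher over all genes, and 14.4% and 1.32% over genes with a mean of at least 5 FPKM. These counts depend on the processing. In TubA-20 against MII, 5 members were lower at pseudocounts of 0.1 and 0.01 and 6 with equal FPKM sums or equal *Gapdh*, and in TubA-20 against TubA-10, 8 were lower at both pseudocounts and with equal *Gapdh*.

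**Figure D2:**
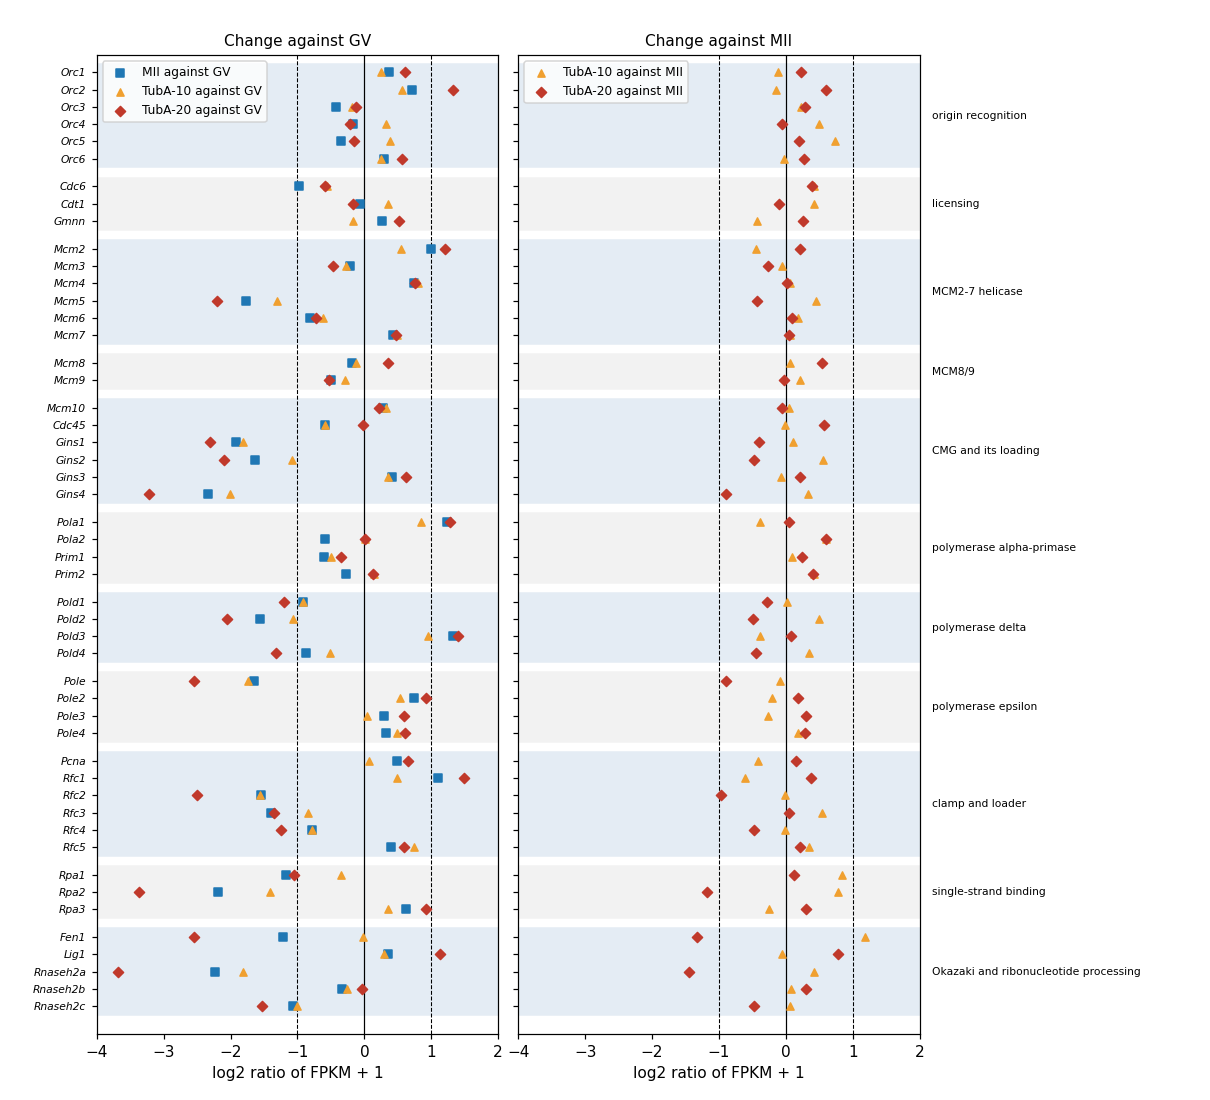
Log2 ratio of FPKM + 1 for each member against GV (left: MII, TubA-10 and TubA-20) and against MII (right: TubA-10 and TubA-20), 1 library per condition. Dashed lines mark 2-fold. Against GV the points of *Rnaseh2a*, *Rpa2* and *Gins4* reach furthest to the left, and against MII *Rnaseh2a*, *Fen1* and *Rpa2* in TubA-20 and *Fen1* in TubA-10 lie past a dashed line.

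The 3′ ends of the members were read because stored oocyte mRNAs carry signals there that set the length of the poly(A) tail, on which oligo(dT) selection acts. A cytoplasmic polyadenylation element (CPE) is bound by CPEB, and a nuclear polyadenylation signal (PAS) stands close to the cleavage site. This feature was chosen after the expression values had been seen. The motifs searched on the transcript strand were TTTTAT and TTTTAAT for the CPE in the last 100 bases of the 3′ UTR, and AATAAA and ATTAAA for the PAS in the last 40. TTTTAAT can overlap AATAAA. Of the 49 members, 20 held a CPE there (40.8%), beside 1492 of 7120 genes with a mean of at least 5 FPKM (21.0%), and 38 held a PAS. The windows of 30 bases below show subunits of 1 complex that moved apart, with CPE and PAS matches in capitals, as DNA letters of GRCm38 on the strand of the gene and the principal GENCODE M21 transcript.
Gins3 (chr8:95645014-95645043, + strand): tgtcTTTTATcattcgactttcatcctaaa
Gins1 (chr2:150931234-150931263, + strand): cttataattgaaAATAAAcagtctttggtt
Gins4 (chr8:23226628-23226657, - strand): gcctaatgatttggaacctcaaatactaag
Rpa3 (chr6:8255976-8256005, - strand): gcctTTTTATaaactttttttaaaagtgat
Rpa2 (chr4:132778711-132778740, + strand): tacagctcacagtagtaaagcacttgcctg
Mcm2 (chr6:88883483-88883512, - strand): tattTTTTAATagatttgAATAAAacctaa
Mcm5 (chr8:75128409-75128438, + strand): ctgagtactgggATTAAAagtgtgggccac
Rfc2 (chr5:134601776-134601805, + strand): tttATTAAAttttcttatctgTTTTATtat
Pold3 (chr7:100082116-100082145, - strand): ggtgggatttctAATAAAaccaaatttgaa
*Gins3*, *Rpa3* and *Mcm2*, which were above GV in every cultured library, held a CPE, and *Gins1*, *Gins4*, *Rpa2* and *Mcm5*, which fell, held none in the last 100 bases. *Rfc2* and *Pold3* ran the other way: *Rfc2* fell with a CPE near its end, and *Pold3* rose without one in that window. Among members not printed, *Rpa1*, *Rfc3* and *Pole* likewise fell past 2-fold from GV to MII with a CPE. *Rfc1* rose past 2-fold without one, and *Pola1* rose with one.

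Over all members, 13 of the 19 above 0 in MII against GV held a CPE (68.4%) and 7 of the 30 below 0 did (23.3%). Among the 7120 genes with a mean of at least 5 FPKM the shares were 27.6% (1097 of 3975) above 0 and 12.6% (395 of 3145) below 0. The contrast therefore ran the same way in the members as in the transcriptome, and no test was made of the difference between them. It was less clear among the members past 2-fold, of which 4 of 13 lower genes (30.8%) and 1 of 3 higher genes (33.3%) held a CPE, beside 10.4% of the lower and 31.7% of the higher genes with a mean of at least 5 FPKM. The split at 0 depends on scaling for 4 members (*Mcm3*, *Mcm8*, *Orc4* and *Cdt1*), whose sign in MII against GV changed under at least 1 of 4 other scalings. Of other transcript features, GC content had a Spearman coefficient with the MII against GV ratio of -0.44 across the 49 members and -0.35 across the 7120 genes. For transcript length it was 0.14 across members and 0.43 across genes. These coefficients describe genes that share the same libraries, and genes are not independent replicates.

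**Figure D3:**
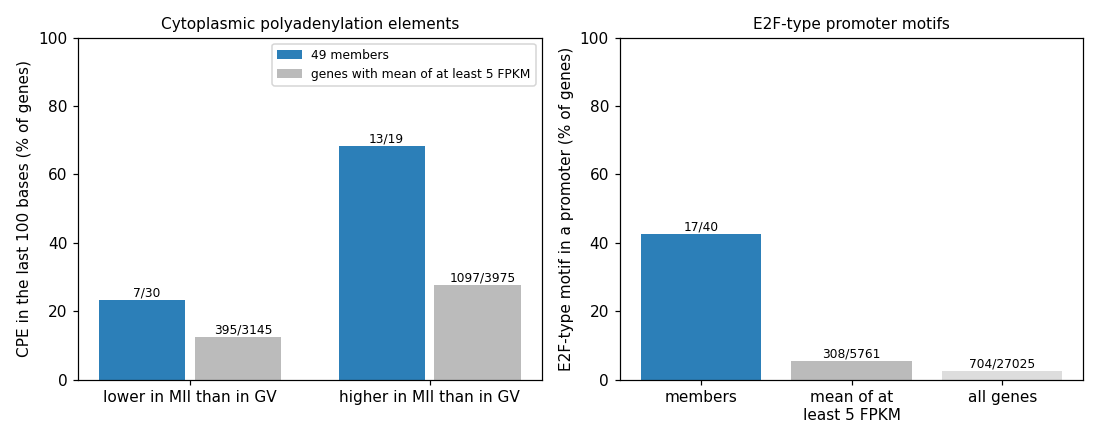
Left: share of genes with a CPE in the last 100 bases of the 3′ UTR, for genes below or above 0 in MII against GV, among the 49 members (blue) and the genes with a mean of at least 5 FPKM (grey). Right: share of genes with an E2F-type motif in a promoter, for members, genes with a mean of at least 5 FPKM and all genes. Counts stand on the bars: 13 of 19 members above 0 and 7 of 30 below 0 held a CPE, and 17 of 40 members held the promoter motif.

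At the other end of these genes, E2F sites are a known feature of replication gene promoters, through which the E2F family ties their transcription to S phase. In the RefSeq promoters (GRCm38.p6, from 250 bases before to 50 after the gene start), 40 members had an entry. An E2F-type motif (TTTCCCGC, TTTGGCGC, TTTCGCGC or TTTGCCGC, on either strand, overlapping matches counted once per gene) was present in 17 of them (42.5%), beside 308 of 5761 genes with a mean of at least 5 FPKM (5.35%) and 704 of 27025 genes (2.605%). Members on both sides held it: 9 of 23 below 0 in MII against GV and 8 of 17 above 0. The windows below show it before the start of *Mcm5*, which fell from GV to MII, of *Pola1*, which rose, and of *Mcm6* and *Orc3*, which stayed within 2-fold, with the motif in capitals as read on the gene's strand.
Mcm5 (chr8:75109349-75109378, + strand): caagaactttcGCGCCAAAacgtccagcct
Pola1 (chrX:93632275-93632304, - strand): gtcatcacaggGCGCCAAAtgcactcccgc
Mcm6 (chr1:128359793-128359822, - strand): gtatgcttttgGCGCGAAAagtgcgtgcgg
Orc3 (chr4:34614965-34614994, - strand): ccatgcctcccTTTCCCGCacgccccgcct
In *Mcm5* and *Mcm6* a second match on the other strand overlaps the one shown. A match describes the letters of the window and not a bound site, and 9 members had no promoter entry.

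The licensing side of the machinery held a single 2-fold change against GV as deposited. None of the 6 ORC genes and none of *Cdc6*, *Cdt1* and *Gmnn* passed 2-fold from GV to MII or to TubA-10. Only *Orc2* passed it from GV to TubA-20. Among genes with a mean of at least 5 FPKM, 18.9% were lower and 8.60% higher in the first comparison. The second had 12.6% and 1.80%, and the third 24.7% and 21.0%. So small a group can hold few calls at such shares, and the difference was not tested. *Cdc6* also depended on the setting, since it passed 2-fold from GV to MII (-1.10) when the median change was set to 0. ORC marks origins, and ORC1 and ORC4 are among its ATP-binding subunits. *Orc1* was at 29.1, 38.0, 34.9 and 44.8 FPKM over GV, MII, TubA-10 and TubA-20. *Orc2* was at 37.0 FPKM in GV and 61.3 in MII, next to 55.1 for TubA-10 and 93.8 after TubA-20. TubA-20 was highest, and there its log2 ratio against GV was 1.32. *Orc3* was at 22.2 FPKM in GV against 16.4 in MII, with 19.3 under TubA-10 and 20.2 under TubA-20. Of these 3 genes *Orc2* alone moved past 2-fold. *Orc4* was at 46.6, 41.4, 58.6 and 39.9 FPKM over GV, MII, TubA-10 and TubA-20. Here TubA-10 was highest. *Orc5* was at 215 FPKM in GV and 169 in MII, next to 282 for TubA-10 and 193 after TubA-20, with the same order at the top. Its exons share sequence on the same strand with the pseudogene *Gm15421*, which could take part of its reads. *Orc6* was at 245 FPKM in GV against 299 in MII, with 292 under TubA-10 and 361 under TubA-20. It was the most abundant ORC gene per length in every library. The highest-to-lowest ratio of FPKM among the 6 genes lay between 11.0 in GV and 18.3 in MII, so the FPKM values of the ORC genes were far from equal throughout.

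*Gmnn*, which encodes geminin, was at 281, 338, 251 and 403 FPKM over GV, MII, TubA-10 and TubA-20. Geminin mRNA was the most abundant of the 49 members per length in GV, MII and TubA-20. It exceeded both loading factors in all 4 libraries. *Cdt1* was at 62.9 FPKM in GV and 59.9 in MII, next to 80.8 for TubA-10 and 55.6 after TubA-20. *Cdc6*, the ATPase that recruits CDT1 and MCM to ORC, was at 24.2 FPKM in GV against 11.8 in MII, with 16.1 under TubA-10 and 15.8 under TubA-20, and GV was highest. Its log2 ratio from GV to MII was -0.98, just inside the 2-fold limit as deposited and past it (-1.04) with a pseudocount of 0.01. From MII to TubA-20 the ratios were 0.40 for *Cdc6*, -0.10 for *Cdt1* and 0.25 for *Gmnn*, all short of 2-fold.

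The 6 genes of the MCM2-7 ring, which is built from 1 copy of each subunit, parted, since *Mcm5* fell and *Mcm2* rose past 2-fold in TubA-20. *Mcm5* was at 56.5, 15.9, 22.2 and 11.6 FPKM over GV, MII, TubA-10 and TubA-20. GV stood above all cultured libraries, and the log2 ratio against GV was -1.77 in MII, -1.31 with TubA-10 and -2.20 with TubA-20. *Mcm2* was at 27.6 FPKM in GV and 55.8 in MII, next to 40.7 for TubA-10 and 64.9 after TubA-20. GV was lowest, and the ratio was 1.21 in TubA-20. From GV to MII the ratio of *Mcm2* was 0.99, and it passed 2-fold (1.05) when libraries were scaled to equal upper quartiles. The other 4 subunits did not pass 2-fold in any of the 6 comparisons as deposited. *Mcm4* was at 36.8 FPKM in GV against 62.1 in MII, with 64.6 under TubA-10 and 62.8 under TubA-20. *Mcm6* was at 57.0, 32.0, 36.6 and 34.1 FPKM over GV, MII, TubA-10 and TubA-20, and its highest value was that of GV. *Mcm7*, which overlaps the microRNA genes *Mir25* and *Mir93* on the same strand, was at 23.2 FPKM in GV and 31.5 in MII, next to 33.0 for TubA-10 and 32.6 after TubA-20. *Mcm3* was at 27.1 FPKM in GV against 23.3 in MII, with 22.3 under TubA-10 and 19.2 under TubA-20. The ratio between the highest and the lowest FPKM of the 6 subunits was 2.46 in GV against 3.90 in MII, with 2.91 under TubA-10 and 5.61 under TubA-20. It was thus smallest in GV, in 1 library per condition.

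The paralogs *Mcm8* and *Mcm9*, which act together in homologous recombination and are needed for fertility, were low. *Mcm8* was at 9.19, 7.93, 8.33 and 12.01 FPKM over GV, MII, TubA-10 and TubA-20. *Mcm9* was at 6.69 FPKM in GV and 4.44 in MII, next to 5.29 for TubA-10 and 4.32 after TubA-20. Neither passed 2-fold in any comparison. *Mcm10*, a fork protein that helps to activate CMG, was at 27.2 FPKM in GV against 33.2 in MII, with 34.4 under TubA-10 and 32.0 under TubA-20. Its log2 ratios stayed within 2-fold in all 6 comparisons.

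GINS is a tetramer of the products of *Gins1* to *Gins4*, and 3 of its 4 mRNAs fell together. *Gins4* was at 116, 22.3, 28.2 and 11.6 FPKM over GV, MII, TubA-10 and TubA-20. GV lay far above the rest, and the log2 ratio against GV was -2.33 in MII, -2.01 with TubA-10 and -3.22 with TubA-20. *Gins1* was at 93.1 FPKM in GV and 23.9 in MII, next to 25.7 for TubA-10 and 17.9 after TubA-20, and its ratios were -1.92, -1.82 and -2.32 in the same order. *Gins2* was at 65.3 FPKM in GV against 20.4 in MII, with 30.4 under TubA-10 and 14.4 under TubA-20, and the ratios were -1.63, -1.08 and -2.10, of which that for TubA-10 fell short of 2-fold (-0.82) with equal *Gapdh*. *Gins3* was the exception at 6.94, 9.63, 9.12 and 11.3 FPKM over GV, MII, TubA-10 and TubA-20. Its cultured libraries lay above GV and within 2-fold of it. In GV it was the scarcest of the 4 by a wide margin, and in TubA-20 it lay close to *Gins4*. Between the TubA libraries *Gins4* (log2 ratio -1.22) and *Gins2* (-1.02) fell by more than 2-fold, and the call for *Gins2* was lost (-0.90) with equal upper quartiles. *Cdc45*, the remaining CMG component, was at 61.6 FPKM in GV and 40.8 in MII, next to 40.5 for TubA-10 and 61.0 after TubA-20. GV and TubA-20 were at almost the same level.

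**Figure D4:**
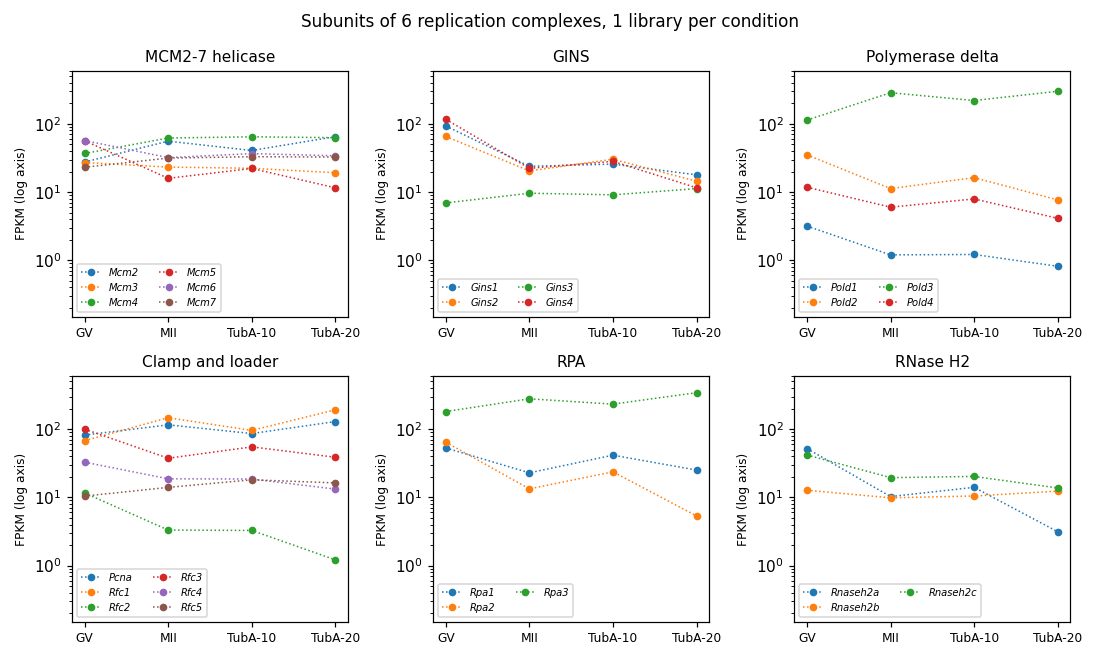
FPKM (log axis) of the subunits of 6 replication complexes in the 4 libraries, 1 point per library. Dotted lines join the points of 1 gene to guide the eye and do not mark a time course. In GINS, *Gins1*, *Gins2* and *Gins4* start above *Gins3* in GV and lie close to it in TubA-20, while in RPA and in polymerase delta the distance between subunits grows.

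Polymerase alpha-primase, which starts every new strand, had a single mover. *Pola1*, the catalytic subunit, was at 8.98 FPKM in GV against 22.4 in MII, with 16.9 under TubA-10 and 23.1 under TubA-20. GV was the lowest library, and the log2 ratios against it were 1.23 in MII, 0.84 with TubA-10 and 1.27 with TubA-20. *Pola2*, its accessory subunit, was at 17.8, 11.4, 17.9 and 17.9 FPKM over GV, MII, TubA-10 and TubA-20, and MII was lowest. The primase genes stayed within 2-fold. *Prim1*, the catalytic primase, was at 32.8 FPKM in GV and 21.3 in MII, next to 22.8 for TubA-10 and 25.4 after TubA-20. *Prim2*, which carries the regulatory role, was at 40.9 FPKM in GV against 33.6 in MII, with 45.1 under TubA-10 and 45.0 under TubA-20.

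Polymerase delta, the lagging-strand enzyme, showed the widest gap between subunits. Its accessory subunit *Pold3* was at 114, 286, 219.7 and 300.2 FPKM over GV, MII, TubA-10 and TubA-20. All cultured libraries exceeded GV, with log2 ratios of 1.32 in MII, 0.94 with TubA-10 and 1.39 with TubA-20. *Pold2* was at 35.1 FPKM in GV and 11.3 in MII, next to 16.3 for TubA-10 and 7.70 after TubA-20. Here GV exceeded all cultured libraries, with ratios of -1.56, -1.06 and -2.05. The subunits lay on opposite sides of GV in all 3 cultured libraries, although *Pold3* passed 2-fold in TubA-10 only with equal FPKM sums (1.02) or equal *Gapdh* (1.21) and the call for *Pold2* there was lost with equal FPKM sums (-0.99) or equal *Gapdh* (-0.81). *Pold4*, the smallest subunit, was at 11.8 FPKM in GV against 6.01 in MII, with 7.94 under TubA-10 and 4.13 under TubA-20. It fell past 2-fold in TubA-20 (ratio -1.32), and part of its exon sequence belongs to another annotated gene on the same strand. *Pold1*, the catalytic subunit, was the least abundant member, at 3.18, 1.20, 1.22 and 0.818 FPKM over GV, MII, TubA-10 and TubA-20. Its ratio was -1.20 in TubA-20 and -0.92 in MII, the latter past 2-fold with smaller pseudocounts (-1.33 with 0.1).

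Polymerase epsilon, the leading-strand enzyme, changed past 2-fold in its catalytic subunit alone. *Pole* was at 20.8 FPKM in GV and 5.93 in MII, next to 5.53 for TubA-10 and 2.72 after TubA-20. Its GV value was the highest, and the log2 ratios were -1.66 in MII, -1.74 with TubA-10 and -2.55 with TubA-20. *Pole2* was at 11.4 FPKM in GV against 19.6 in MII, with 16.9 under TubA-10 and 22.3 under TubA-20. *Pole3* was at 75.4, 92.8, 77.3 and 115 FPKM over GV, MII, TubA-10 and TubA-20. *Pole4*, which pairs with POLE3 in a histone-fold dimer, was at 193 FPKM in GV and 241 in MII, next to 272 for TubA-10 and 294 after TubA-20. For these 3 accessory subunits GV had the lowest deposited value, which other scalings turned for *Pole3* in TubA-10, and none passed 2-fold as deposited, although *Pole2* did so in TubA-20 (1.06) with equal upper quartiles. *Pole2* shares exon sequence on the same strand with another annotated gene.

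*Pcna*, the sliding clamp, was at 81.8 FPKM in GV against 116 in MII, with 86.1 under TubA-10 and 129 under TubA-20. It did not pass 2-fold in any comparison. The loader around it split. *Rfc1*, the large subunit that sets the clamp loader for PCNA apart from related loaders, was at 67.8, 147, 95.7 and 192 FPKM over GV, MII, TubA-10 and TubA-20. GV was lowest and TubA-20 highest, with log2 ratios against GV of 1.10 in MII and 1.49 in TubA-20, the first falling short of 2-fold (0.98) when the median change was set to 0. *Rfc2* was at 11.6 FPKM in GV and 3.32 in MII, next to 3.27 for TubA-10 and 1.21 after TubA-20. Here GV was highest and TubA-20 lowest, with ratios of -1.54 in MII, -1.56 with TubA-10 and -2.51 with TubA-20. The remaining small subunits are shared with other loaders as *Rfc2* is. *Rfc3* was at 99.8 FPKM in GV against 37.4 in MII, with 54.9 under TubA-10 and 38.7 under TubA-20, and its ratios were -1.39 in MII and -1.34 in TubA-20. *Rfc4* was at 32.8, 18.7, 18.5 and 13.2 FPKM over GV, MII, TubA-10 and TubA-20. It fell past 2-fold in TubA-20 (ratio -1.25), beside a ratio of -0.78 in MII. *Rfc5* was at 10.4 FPKM in GV and 14.0 in MII, next to 18.1 for TubA-10 and 16.3 after TubA-20, and GV was lowest. Over *Pcna* and the 5 loader genes the highest-to-lowest ratio of FPKM was 9.56 in GV against 44.3 in MII, with 29.3 under TubA-10 and 158 under TubA-20, and *Rfc2* was the lowest of them in the 3 cultured libraries.

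RPA is a trimer, and its mRNAs showed the same kind of split. *Rpa2* (chr4:132768332-132778752, + strand, GRCm38) was at 64.4 FPKM in GV against 13.3 in MII, with 23.7 under TubA-10 and 5.34 under TubA-20. GV was highest and TubA-20 lowest. Its log2 ratio against GV was -2.19 in MII, -1.41 with TubA-10 and -3.37 with TubA-20. With MII as the base the ratios were 0.78 (TubA-10) and -1.17 (TubA-20). The TubA libraries thus lay on opposite sides of MII. *Rpa1*, the largest subunit, was at 52.9, 22.9, 41.5 and 25.1 FPKM over GV, MII, TubA-10 and TubA-20. Its ratios against GV were -1.18 in MII, -0.34 with TubA-10 and -1.05 with TubA-20, and the calls in MII and TubA-20 were lost with equal *Gapdh* (-0.96 and -0.98), the second also with equal upper quartiles (-0.90). *Rpa3*, the smallest subunit, has a CPE in its printed 3′ end, unlike *Rpa2*. *Rpa1*, which fell, also holds a CPE in the last 100 bases, so the CPE did not follow direction in RPA. *Rpa3* was at 181 FPKM in GV and 278 in MII, next to 232 for TubA-10 and 342 after TubA-20. GV was lowest, and the ratio of 0.91 in TubA-20 passed 2-fold (1.06) with equal upper quartiles. The highest-to-lowest ratio among the 3 genes was 3.42 in GV against 20.9 in MII, with 9.83 under TubA-10 and 64.0 under TubA-20.

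The lowest ratios of TubA-20 against MII lay in the enzymes that finish the strands and remove ribonucleotides. *Fen1* (chr19:10199132-10204169, - strand), the nuclease that trims Okazaki flaps, was at 18.3 FPKM in GV against 7.31 in MII, with 18.0 under TubA-10 and 2.30 under TubA-20. GV and TubA-10 were nearly equal, MII was lower and TubA-20 lowest. Its log2 ratio was 1.19 from MII to TubA-10, -1.33 from MII to TubA-20 and -2.52 from TubA-10 to TubA-20. *Rnaseh2a* (chr8:84956610-84969767, - strand), the catalytic subunit of RNase H2, was at 51.9, 10.3, 14.0 and 3.13 FPKM over GV, MII, TubA-10 and TubA-20. The fall was steepest in TubA-20, with ratios against GV of -2.23 in MII, -1.81 with TubA-10 and -3.68 with TubA-20. Its ratio from MII to TubA-20 was -1.45, and it shares exon sequence on the same strand with the annotated gene *Gm49661*, so its level carries that uncertainty. *Rnaseh2c* was at 41.7 FPKM in GV and 19.5 in MII, next to 20.3 for TubA-10 and 13.7 after TubA-20. GV was highest, and the ratios were -1.06 in MII, -1.01 with TubA-10 and -1.54 with TubA-20. The calls for MII and TubA-10 were lost with equal FPKM sums (-0.94 and -0.93). *Rnaseh2b* was at 12.7 FPKM in GV against 9.85 in MII, with 10.5 under TubA-10 and 12.3 under TubA-20. It stayed within 2-fold. *Lig1*, the ligase that seals the fragments, moved the other way. It was at 19.6, 25.4, 24.3 and 44.4 FPKM over GV, MII, TubA-10 and TubA-20. TubA-20 was highest, with a ratio against GV of 1.14, or 0.95 when the median change was set to 0.

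The neighbours of the core machinery were counted from 5 further lists of 50 genes: fork protection with firing and loading partners, chromatin assembly, topoisomerases, dNTP supply, and S-phase kinases with the E2F family. All 50 were in the table. From GV to MII, 4 were more than 2-fold lower (8%) and 9 higher (18%), with a median log2 ratio of 0.61, beside 8.34% and 3.05% of all genes and 18.9% and 8.60% of genes with a mean of at least 5 FPKM. From GV to TubA-20, 7 were lower (14%) and 18 higher (36%), with a median of 0.70, beside 11.7% and 7.61% of all genes and 24.7% and 21.0% of those with a mean of at least 5 FPKM. Of the 18 fork and firing partners, 11 were higher (61.1%) and 3 lower (16.7%) in TubA-20 than in GV, with a median of 1.15, beside a median of -0.13 for the 49 members and 0.28 for genes with a mean of at least 5 FPKM. The same 18 genes were already above GV in MII, with a median of 0.85, 4 higher (22.2%) and 2 lower (11.1%). Between MII and TubA-20 their median was 0.14, with 0 higher and 1 lower (5.56%). From MII to TubA-20, 4 of the 50 fell (8%) and 0 rose, with a median of 0.08, beside 2.44% lower over all genes and 6.41% over genes with a mean of at least 5 FPKM.

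By the largest changes from GV to MII among genes with a mean of at least 5 FPKM, the E2F partner *Tfdp2* was at 20.6 FPKM in GV and 56.8 in MII, next to 43.3 for TubA-10 and 64.1 after TubA-20, a rise from GV to MII (log2 ratio 1.42). *E2f5* was at 258 FPKM in GV against 619 in MII, with 404 under TubA-10 and 698 under TubA-20, and likewise rose (1.26). The thymidylate synthase gene *Tyms* was at 315, 68.6, 86.6 and 25.6 FPKM over GV, MII, TubA-10 and TubA-20, and fell (-2.18). *Chaf1b*, a subunit of the histone chaperone CAF-1, was at 26.7 FPKM in GV and 8.25 in MII, next to 10.4 for TubA-10 and 2.996 after TubA-20, a fall from GV to MII (-1.58). *Tyms* and *Chaf1b* also fell past 2-fold from MII to TubA-20, with ratios of -1.39 and -1.21. The other genes that fell past 2-fold in that comparison, *Cdk2* (-1.24) and *Dscc1* (-1.02), were picked out after their values were seen. *Cdk2* had a mean of 3.64 FPKM, below the limit of 5 FPKM, and was at 0.680 FPKM in TubA-20. The largest ratios upward were 0.93 for the histone-binding gene *Rbbp4* and 0.65 for the cyclin gene *Ccna2*, both short of 2-fold. GV was the highest of the 4 libraries for these 4 genes. They were named because they fell, so this largely follows from the choice and is not a separate result.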

How the data were processed

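RNA-seq was measured in 4 libraries, 1 for each of GV, MII, TubA-10 and TubA-20, which were mapped to the columns of the table by their titles. The deposited values were FPKM, computed by the authors with cufflinks in strand-specific mode on mm10 (the submitters' processing notes list STAR 2.5.0, Cufflinks and Cuffdiff 2.2.1). The labels name TRIzol and the paper another extraction, and its gene model is given as UCSC although entries carry Ensembl identifiers. Of 21959 entries, 165 had no symbol, and entries that shared a symbol were added, which left 21957 genes. Each member had 1 entry.

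Log2 ratios of FPKM with a pseudocount of 1 were computed for 6 comparisons, and a gene was called past 2-fold (strictly), with no filter. With 1 library per condition there is no test. The members, lists and roles were chosen with earlier results of these data known. All 49 members could be named, and those with a mean of at least 5 FPKM were given in every library. Of the further lists, those 2 genes that rose and those 2 that fell most from GV to MII and from MII to TubA-20 were named, with *Cdk2* and *Dscc1* added outside that rule. Alternatives were pseudocounts of 0.1 and 0.01, minimum means of 1 and 5 FPKM, 4 scalings (median change of 0, equal FPKM sums, equal upper quartiles, equal *Gapdh*), the highest entry per symbol, and the members without the 10 genes of the study. Gene positions and 3′ ends were read from GENCODE M21 on GRCm38, and promoters from RefSeq. The scripts ran in Python 3.11.15 (pandas 2.3.3, numpy 2.4.6, scipy 1.17.1, figures in matplotlib 3.10.9) and were tested on simulated data.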

Additional observations from a re-analysis of the deposited data

How the results depend on the processing

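No paired analysis was possible because each condition had 1 library, and no library could be left out for the same reason. Without the 10 genes listed by the study, the members more than 2-fold lower numbered 5 in MII against GV, 4 in TubA-10 against GV, 6 in TubA-20 against GV, 0 in TubA-20 against MII and 2 in TubA-20 against TubA-10, and those higher in TubA-10 against MII numbered 0. In TubA-10 against GV, 1 member was higher after scaling to equal FPKM sums and 3 after scaling to equal *Gapdh*. In TubA-20 against MII, 5 were lower at pseudocounts of 0.1 and 0.01, and 6 after scaling to equal FPKM sums or to equal *Gapdh*. In TubA-20 against TubA-10, 8 were lower and 1 higher at pseudocounts of 0.1 and 0.01, 8 were lower with equal *Gapdh*, and 1 was higher with equal upper quartiles. The cause of these shifts was not tested. No call of a member changed direction under any alternative, although the sign of uncalled ratios depended on scaling for 4 members in MII against GV and for 10 in TubA-20 against MII. Over the 9193 genes at 1 FPKM or more in all libraries, the median change from GV to MII was 0.13 as deposited and between 0.02 and 0.32 under the 4 other scalings. Read counts are not used here, so the error of a single low value such as *Pold1* or *Rfc2* is unknown.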

Other observations

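The 11 oocyte markers were not part of any replication list. From GV to TubA-20, 5 fell by more than 2-fold (45.5%) and 2 rose (18.2%), with a median log2 ratio of -0.64, beside 11.7% lower and 7.61% higher over all genes and 24.7% and 21.0% over genes with a mean of at least 5 FPKM. From MII to TubA-20, 4 were lower (36.4%) and 0 higher, with a median of -0.33, beside 2.44% lower over all genes and 6.41% over genes with a mean of at least 5 FPKM, and from GV to MII 1 was lower and 1 higher, with a median of 0.05. *Hdac6*, the intended target of TubA, was at 4.44, 3.74, 2.998 and 1.86 FPKM over GV, MII, TubA-10 and TubA-20, and *Gapdh* was at 52.6, 44.9, 43.7 and 50.1 FPKM in the same order.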
